A study of Mus musculus with 40 samples.

Results

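The 35 genes described here encode aminoacyl-tRNA synthetases, the enzymes that join each amino acid to its transfer RNA. They were found by gene symbol through the Ensembl identifiers of the deposited counts, among 21958 endogenous genes. Of the 35, 20 encode cytosolic enzymes and 15 encode mitochondrial enzymes, whose symbols end in 2, and Lars2 was left out of the mitochondrial set. A synthetase activates its amino acid with ATP and passes it to the tRNA, so that the ribosome reads the right residue at each codon. The cytosolic and mitochondrial enzymes are mostly products of separate nuclear genes, but Gars and Kars supply both compartments, Farsa and Farsb encode the subunits of a single enzyme, and Qars has no mitochondrial partner. Several cytosolic enzymes sit in a complex built on the scaffold proteins Aimp1, Aimp2 and Eef1e1. Many cytosolic synthetase genes are known targets of ATF4, a transcription factor that is translated when the initiation factor eIF2 is phosphorylated.

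RNA was sequenced with Smart-seq2 from 40 libraries of 100 sorted B-lineage cells each. The cells came from the bone marrow of 10 chimeras, made by giving lethally irradiated CD45.1 mice marrow that was either wild type (WT; mice 1, 2, 3, 6 and 7) or homozygous for the CRISPR/Cas9-made allele P198A (mutant; mice 4, 5, 8, 9 and 10). All groups therefore share irradiation and an 8-week reconstitution, and the age of hosts and donors was not given in the sources used here. The allele is known to lie in Slc39a7, which encodes the zinc transporter ZIP7. It is a missense change, so the RNA level of that gene does not check the genotype. Every mouse gave donor cells (CD45.1-CD45.2+) of 4 fractions: FrB (pro-B, B220+CD43+CD24+BP1-), FrC (a fraction whose gate the labels leave out), FrD (late pre-B, B220+CD43-IgM-IgD-) and FrE (immature, B220+CD43-IgM+IgD-). Each of the 8 groups thus holds 5 libraries, 1 per mouse.

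The libraries differed in quality. Endogenous counts ran from 42111 (FrE of mutant mouse 9, where 1 count is 23.7 CPM, counts per 1000000 endogenous counts) and 1723215 in the next lowest to 43372070. In 10 libraries, 8 of them mutant, over 15% of the genes with any count had 9 counts or fewer. These low-complexity libraries come, in the mutants, from mice 4, 8, 9 and 10 for FrB, from mice 5, 9 and 10 for FrC and from mouse 9 for FrE. The WT ones come from mouse 3 for FrD and mouse 7 for FrE. Results that rest on them are given with and without them. Of 14 listed B-lineage markers 13 were measured and none was at 0 in any library, with Dntt highest in WT FrB (median 1028 CPM) and Ms4a1 in WT FrE (median 5696 CPM). Summed levels of other markers ran from 1.55 to 77487 CPM for granulocytes and monocytes, from 54.9 to 80318 for erythroid cells, from 501.97 to 52746 for plasma cells, from 0 to 417 for T and NK cells and from 70.3 to 1420 for plasmacytoid dendritic cells. In RNA from 100 pooled cells, fewer cells of a type and less RNA per cell cannot be told apart.

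The sequence element that ATF4 and C/EBP factors bind as a pair, spelled TGATGNAA and searched on both strands, was looked for in RefSeq promoters of GRCm38.p6, from 250 bases before to 50 bases after the start. It was found in 5 of the 13 cytosolic members that had an entry (38.5%) and in 0 of 13 mitochondrial members, beside 4.51% of all 27025 genes with an entry. No entry was matched for Cars, Hars, Lars, Nars, Rars, Vars, Wars, Hars2 and Pars2. The matches are shown because they are a feature that some cytosolic members share and that played no part in choosing them. The match nearest the start is printed for each gene, 5′ to 3′ on the gene's strand with the matched letters in capitals, and in all but Yars the element lies on the opposite strand.
Aars, chr8:111033840-111033869, plus strand: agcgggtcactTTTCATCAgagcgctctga
Gars, chr6:55037960-55037989, plus strand: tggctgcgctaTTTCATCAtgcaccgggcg
Iars, chr13:49682126-49682155, plus strand: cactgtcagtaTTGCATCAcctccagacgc
Tars, chr15:11399655-11399684, minus strand: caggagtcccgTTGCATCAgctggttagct
Yars, chr4:129189895-129189924, plus strand: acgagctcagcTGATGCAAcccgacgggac
Counting the start base as 0, these matches begin at position 9 in Aars, -30 in Gars, 7 in Iars, -15 in Tars and 3 in Yars. A match is a run of letters in this window and not a measured binding site.

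Levels were first compared between genes per kilobase of exon, over the 20 WT libraries. Length is that of all annotated exons of a gene merged, such as 18102 bases for Eprs. This can exceed the length of any single transcript and then lowers the value of that gene. The cytosolic members had a median mean level of 17.1 CPM per kb (range 5.47 to 85.1), and the mitochondrial members 3.58 CPM per kb (range 0.352 to 26.9). On this scale the highest were Farsb (85.1 CPM per kb), which encodes a subunit of phenylalanyl-tRNA synthetase, Hars (histidine, 53.3), Dars (aspartate, 52.0) and Rars (arginine, 49.3). The lowest were Wars2 (2.26), Vars2 (1.34), Ears2 (0.908) and Aars2 (0.352 CPM per kb), all mitochondrial. The sets overlapped in level, since Rars2 at 26.9 CPM per kb lay above 12 of the cytosolic members and Cars at 5.47 below 6 of the mitochondrial ones. A count was present in all 40 libraries for 18 of 20 cytosolic and 6 of 15 mitochondrial members, while Aars2 had a count in 22 libraries.

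The summed level of the 20 cytosolic genes in WT mice was lowest in FrD. It was 1788 to 3003 CPM in FrB (median 2909), 2910 to 3669 in FrC (median 3270), 1398 to 1684 in FrD (median 1526) and 1532 to 3100 in FrE (median 2108). In CPM all 5 WT FrD libraries lay below all WT FrB and all WT FrC libraries, and the FrE libraries overlapped FrD and FrB. With library sizes scaled by TMM, WT FrD (1354 to 2215) stayed below FrC (2379 to 3088) but overlapped FrB (1675 to 2634). The 15 mitochondrial genes summed to 325 to 509 CPM in WT FrB, 411 to 669 in FrC, 216 to 384 in FrD and 271 to 488 in FrE, so that FrD lay below FrC without overlap but overlapped FrB and FrE. Scaled by TMM, the mitochondrial sums of WT FrD (272 to 404) overlapped those of FrC (336 to 563) too. In the mutants the cytosolic sum was 1910 to 3154 CPM in FrB, 2320 to 7302 in FrC, 1702 to 2800 in FrD and 1549 to 2493 in FrE. The 7302 CPM came from FrC of mutant mouse 9, where Iars alone made up 81.7% of the sum. In FrD the mutant cytosolic sums (median 2397 CPM) all lay above the WT sums, but with library sizes scaled by TMM the groups overlapped, at 1755 to 2355 against 1354 to 2215. These sums are descriptions and were not tested.

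**Figure D1:**
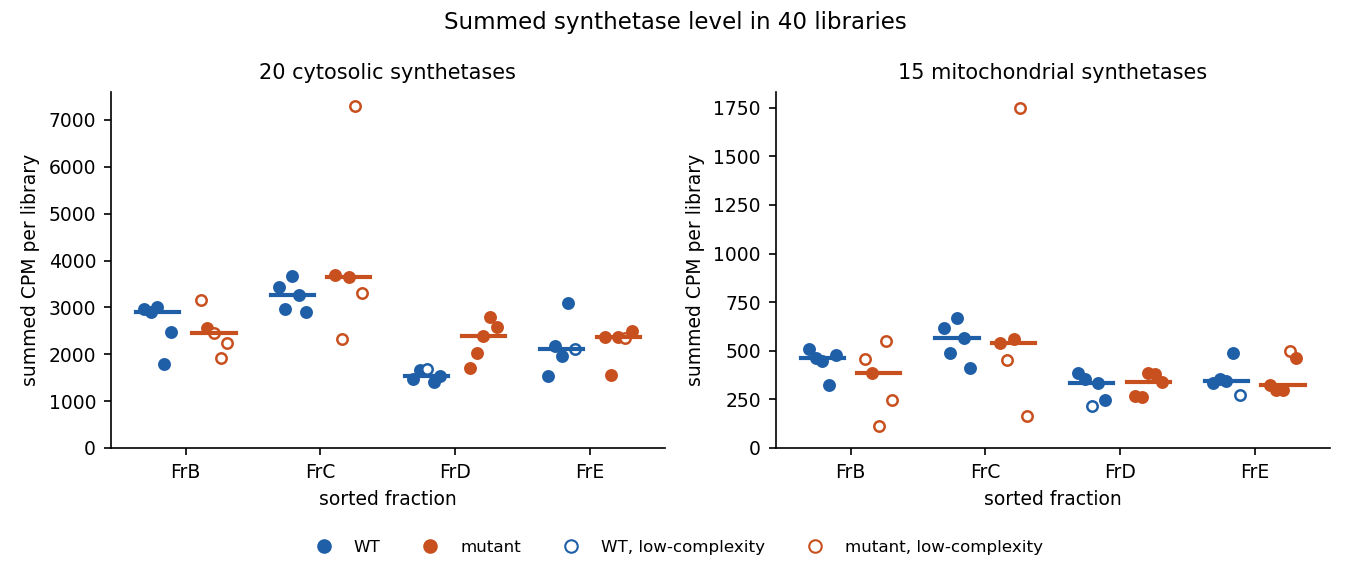
Summed CPM of the 20 cytosolic and the 15 mitochondrial synthetase genes in each of the 40 libraries, by sorted fraction and genotype. Points are libraries, open points are low-complexity libraries, and bars are medians of 5; WT FrD holds the lowest WT cytosolic sums (1398 to 1684 CPM), and FrC of mutant mouse 9 stands apart at 7302 CPM.

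The step from FrC to FrD in WT mice asks how the synthetase genes differ between the FrC gate and late pre-B cells. Of the 20 cytosolic genes 2 fell and none rose, and of the 15 mitochondrial genes 2 fell and none rose, by edgeR's quasi-likelihood test with p-values adjusted over all genes. Of all genes tested 2.28% fell and 2.95% rose. Fold changes lay below 0 in 18 of 20 cytosolic genes (median log2 change -1.06) and in 11 of 15 mitochondrial genes (median -0.89), while the median of all genes was 0.09. An unadjusted p under 0.05 was reached by 14 of the 35. Counts at that level, here and later, are given without the share of all genes and describe the members only. Markers of other cells moved at this step too: the plasma cell markers Jchain (edgeR adjusted p = 0.0451) and Tnfrsf17 (0.0337) fell, the monocyte marker Ly6c2 rose (3.41, 0.0495), and the summed erythroid markers had medians of 2021 CPM in FrC (1138 to 6845) and 223 CPM in FrD (147 to 32753). Uncalled plasma cell markers went both ways, with Prdm1 (1.59), Irf4 (0.74), Mzb1 (0.45) and Xbp1 (0.32) above 0 and Sdc1 (-0.82) below. The other granulocyte and monocyte markers tested were uncalled, with Mpo (-2.14) and Elane (-1.45) below 0 and the rest above. Without the low-complexity libraries only Ly6c2 (3.54), Csf1r (2.68), Lcn2 (1.27) and Ngp (0.25) of that list stayed above 0. The summed plasma cell markers had medians of 1361 and 1696 CPM, and the part of these cells in the synthetase values was not tested. The level was lower in FrD in 5 of 5 WT mice for 15 cytosolic and 8 mitochondrial genes, beside 16.5% of all genes.

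Eprs and Iars were the cytosolic genes that fell. Eprs (chr1:185363044-185428360, plus strand, mm10) encodes the enzyme that charges both glutamate and proline tRNAs and belongs to the multisynthetase complex. In WT mice 1, 2, 3, 6 and 7 it stood at 184, 145, 171, 173 and 152 CPM in FrC and at 21.8, 52.9, 31.5, 45.0 and 51.0 CPM in FrD. The lowest FrC library was above the highest FrD library, and the log2 change was -1.79 (SE 0.40, edgeR adjusted p = 0.0101). Iars (chr13:49682100-49734267, plus strand), which charges isoleucine tRNA, went from 117, 139, 166, 89.0 and 124 CPM to 45.4, 18.6, 40.8, 59.9 and 30.6 CPM, again without overlap. Its log2 change was -1.43 (SE 0.37, edgeR adjusted p = 0.0229). With mouse as a block its log2 change was -1.45 (edgeR adjusted p = 0.0586). The fall of Eprs held in that fit (log2 change -1.88, edgeR adjusted p = 0.00893). On leaving out 1 mouse, the Eprs call was lost without mouse 1 or 6 (log2 changes -1.57 and -1.75) and the Iars call without mouse 1, 2 or 6 (-1.49, -1.20 and -1.65). Complete separation of FrD below FrC was also seen for Gars, Kars, Mars, Nars, Rars, Tars, Vars and Yars, which makes 10 cytosolic genes in all, beside 9.3% of all genes. Of these, Gars (glycine) had 220, 158, 201, 206 and 166 CPM in FrC and 67.5, 88.3, 5.18, 34.9 and 91.3 CPM in FrD, with a log2 change of -1.56 that missed the threshold.

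The mitochondrial genes that fell went to or near 0. Ears2 (chr7:122037213-122067263, minus strand), which charges mitochondrial glutamate tRNA, stood at 9.40, 9.70, 13.6, 10.7 and 13.2 CPM in WT FrC and at 0.0406, 0, 0, 0.0494 and 0 CPM in FrD. Over the group these are 862 counts against 2, a ratio of 537 in pooled CPM with a 95% counting interval of 148 to 4443 (edgeR adjusted p = 0.000636). Aars2 (chr17:45506841-45520843, plus strand), the mitochondrial alanine enzyme, had 5.35, 7.79, 1.23, 6.84 and 5.30 CPM in FrC and no count in any WT FrD library. Against a floor of 3 counts over the group it was at least 171-fold lower in FrD (411 counts against 0, edgeR adjusted p = 0.0343), and with mouse as a block edgeR's adjusted p was 0.0546. Intervals and floors cover counting error only. The Ears2 call held on leaving out any 1 mouse, and the Aars2 call was lost on leaving out any 1 of the 5. Full separation below FrC was further seen for Iars2, Mars2, Sars2 and Tars2, making 6 mitochondrial genes. In Tars2 (mitochondrial threonine) the values went from 98.5, 55.4, 145, 97.1 and 75.2 CPM to 3.17, 2.01, 47.4, 0.494 and 11.6 CPM, and edgeR called it with mouse as a block (log2 change -3.36, adjusted p = 0.0453) but not without.

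In the other direction the lowest p-values belonged to Vars2 (log2 change 2.87, edgeR adjusted p = 0.40), Wars2 (0.83, 0.686) and Hars2 (0.51, 0.808). The Vars2 value rested on 97.3 CPM in FrD of WT mouse 3, a low-complexity library, against 0.0406 to 5.73 CPM in the other FrD libraries. Without the low-complexity libraries more members passed: 10 cytosolic and 4 mitochondrial genes fell, beside 7.53% of all genes. Fold changes were then below 0 in all 20 cytosolic genes, with a median of -1.01. Beside Eprs (-1.82) and Iars (-1.58), the cytosolic calls in that fit were Farsa (-2.16), Sars (-1.96), Mars (-1.34), Gars (-1.30), Kars (-1.23), Tars (-1.05), Aars (-1.01) and Dars (-0.81). Tars2 (-4.27) and Mars2 (-1.42) joined Ears2 and Aars2. Scaled to the ERCC spike-ins, where the median of all genes was -2.39, the medians were -3.47 for the cytosolic and -3.51 for the mitochondrial set.

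**Figure D2:**
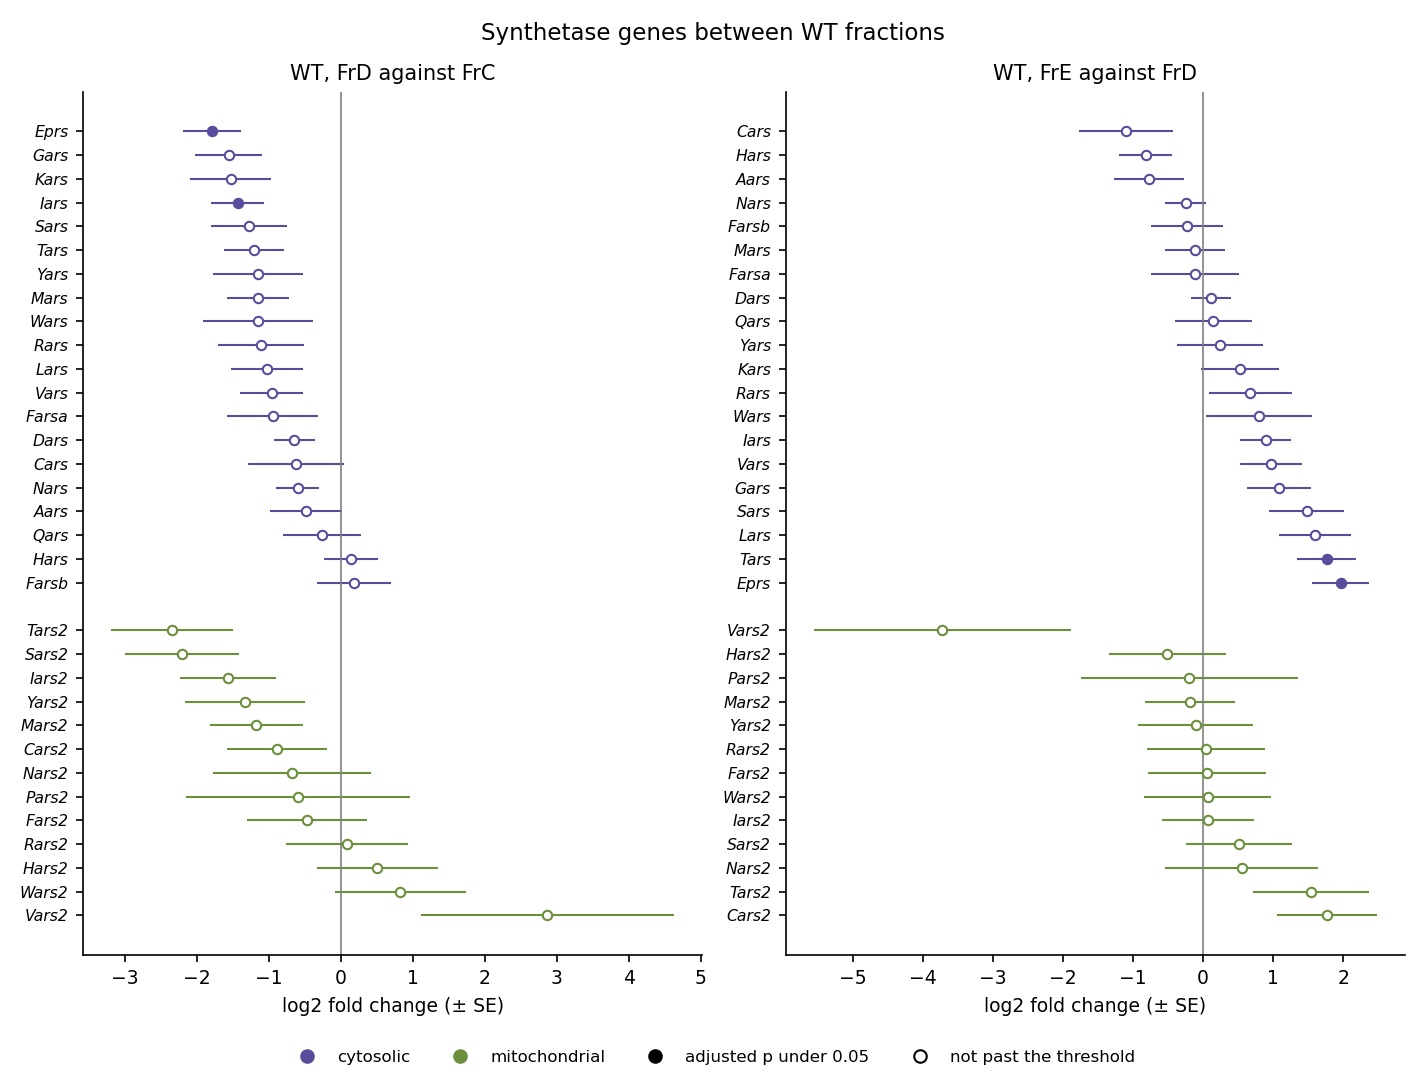
Log2 fold changes of the synthetase genes from WT FrC to FrD and from WT FrD to FrE, with bars of 1 SE, cytosolic genes above mitochondrial genes, and filled points for adjusted p under 0.05. Aars2 and Ears2 are left out, since they were at or near 0 counts in FrD; 18 of 20 cytosolic genes lie below 0 from FrC to FrD, and Eprs is called at both steps.

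From FrD to FrE, immature B cells that carry surface IgM, 2 cytosolic and 1 mitochondrial gene rose and none fell by edgeR, beside 2.88% of all genes that rose and 2.43% that fell. Eprs had 74.9, 72.1, 144, 147 and 334 CPM in WT FrE, all above its FrD values given earlier (as in 1.8% of all genes, Ears2 among them), and a log2 change of 1.96 (SE 0.41, edgeR adjusted p = 0.00536). Tars (chr15:11382301-11399665, minus strand), which charges threonine tRNA, went from 53.5, 62.7, 16.01, 61.4 and 21.7 CPM to 153, 80.1, 59.3, 132 and 264 CPM. These ranges touch, since the lowest FrE library lies below the 2 highest FrD libraries, and the log2 change was 1.76 (SE 0.42, edgeR adjusted p = 0.0164). The Tars call was lost without mouse 1, 6 or 7 (log2 changes 1.82, 2.03 and 1.08), while those of Eprs and Ears2 held on leaving out any 1 mouse. Ears2 rose from 2 counts in FrD to 146 in FrE, a ratio of 87.0 in pooled CPM (95% counting interval 23.7 to 725, edgeR adjusted p = 0.00413). Its FrE libraries, at 1.502, 0.274, 1.06, 5.55 and 1.57 CPM, stayed below every FrC library. Of the cytosolic log2 changes 13 of 20 were above 0 (median 0.38), and of the mitochondrial ones 10 of 15 (median 0.06), beside a median of 0.01 for all genes. In 5 of 5 WT mice 4 cytosolic genes and 1 mitochondrial gene were higher in FrE, beside 5.3% of all genes, and 1 mitochondrial gene was lower, beside 4.96%. The plasma cell markers Jchain (edgeR adjusted p = 0.0213), Tnfrsf17 (0.0194) and Xbp1 (1.45, 0.0477) rose at the same step and Irf4 fell (-1.52, 0.0029). Their list summed to 1336 to 1736 CPM in WT FrD and 1186 to 23520 CPM in WT FrE (median 7893), and its part in the synthetase values was not tested. The lowest p-values downward were those of Hars (-0.82, edgeR adjusted p = 0.206), Vars2 (-3.72, 0.246) and Cars (-1.10, 0.375). Without the low-complexity libraries Eprs (1.32), Tars (1.08) and Ears2 remained called and Sars (1.83) and Tars2 (3.11) were added, beside 4.31% of all genes that rose.

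From FrB to FrC no synthetase gene was called in either direction by edgeR or by DESeq2, and 1 of the 35 had an unadjusted edgeR p under 0.05. Only 0.166% of all genes were called at this step, all of them lower in FrC. Of the cytosolic genes 17 of 20 lay above 0 with a median log2 change of 0.27, and of the mitochondrial genes 10 of 15 with a median of 0.22. Aars2 and Ears2 were higher in all FrC than in all FrB libraries, beside 3.75% of all genes: Ears2 had 6.23, 3.97, 5.14, 5.20 and 6.40 CPM in FrB, and Aars2 0.879, 0, 0.125, 0 and 0 CPM. The lowest p-values upward after Aars2 were those of Mars (methionine, 0.71) and Iars (0.56), and downward those of Wars2 (-0.24), Nars (-0.16) and Cars2 (-0.08). Summed plasma cell markers had medians of 29832 CPM in WT FrB and 1361 CPM in WT FrC. Medians were 16639 and 2021 CPM for erythroid markers, and 2424 and 50.4 CPM for granulocyte and monocyte markers. Of these lists edgeR called Xbp1 (-2.57), Mzb1 (-1.48) and Ly6c2 (-5.35), while Irf4 (0.71) lay above 0 without a call. The part of these cells in the synthetase values was not tested.

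Genes that act beside the synthetases also differed between WT FrC and FrD. Of 22 genes that handle charged tRNA, 6 fell and none rose, with a median log2 change of -0.68. They were the elongation factor genes Eef1a1 (-0.67), Eef1d (-1.26) and Eef1g (-1.11), which bring charged tRNA to the ribosome or recycle the factor that does, the tRNA exporter gene Xpot (-2.37), the deacylase gene Dtd1 (-2.66) and the mitochondrial elongation factor gene Gfm1 (-2.69). None of the scaffold genes Aimp1, Aimp2 and Eef1e1 was called with all libraries, and neither was any of 11 tested genes of the eIF2 kinases and eIF2B. Beside these list counts stand 2.28% of all genes that fell and 2.95% that rose. Of 28 tested ATF4 target genes outside the synthetases, 3 fell, namely the serine synthesis gene Phgdh (-3.10), the mitochondrial one-carbon gene Shmt2 (-2.87) and the proline synthesis gene Pycr1 (1330 counts against 3). Of 9 genes of the MYC list, Myc itself (-6.02) and the nucleolar gene Npm1 (-1.38) fell. Without the low-complexity libraries, where 7.53% of all genes fell and 8.54% rose, Aimp2 (-0.89) and the eIF2B gene Eif2b3 (-2.61) also fell. In that fit the ATF4 list moved both ways, since 6 of its 29 tested genes fell, among them Psat1 (-1.34), Mthfd2 (-1.12) and Slc3a2 (-1.50), and 2 rose, Ddit3 (1.398) and Slc38a2 (0.58). Of the tRNA handling genes 8 of 22 then fell and none rose, and of the MYC list 5 of 9 fell and 1 rose. Myc (3.73) and Pycr1 rose again from FrD to FrE, and no gene of these lists was called from FrB to FrC. Mki67, a marker of cycling cells, had median levels of 489, 733, 366 and 111 CPM in WT FrB, FrC, FrD and FrE, and its part in the synthetase levels was not tested.

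In FrD, edgeR called no synthetase gene between mutant and WT, and 1 of all genes tested (0.00996%), while DESeq2 called Ears2, as given in the next paragraph. Cytosolic genes lay above 0 in 16 of 20 cases with a median log2 difference, mutant minus WT, of 0.73, beside -0.07 for all genes and -0.08 for the 12 mitochondrial genes tested. An unadjusted p under 0.05 was reached by 4 of 32 tested members. Sars (chr3:108424865-108445209, minus strand), which charges serine and selenocysteine tRNAs, had 14.7, 18.5, 70.0, 29.3 and 36.2 CPM in WT and 50.3, 221, 158, 209 and 128 CPM in mutant mice. A single WT library, that of mouse 3, overlapped the mutants, and the log2 difference was 1.83 (SE 0.57, edgeR adjusted p = 0.682). That library is low-complexity, and without it Sars was called (2.51, edgeR adjusted p = 0.0272), as were 0.106% of all genes in that direction. Eprs and Gars were higher in all mutant than in all WT FrD libraries, beside 1.72% of all genes, and no tested member was lower in all of them, beside 0.468%. Eprs had 67.6, 72.3, 59.6, 113 and 86.6 CPM in the mutants and Gars 106, 171, 171, 145 and 194 CPM. Gars (1.31, edgeR adjusted p = 0.908) and Iars (1.09, 0.908) followed Sars in p, and Farsb (-1.11, 0.916), Hars (-0.95, 0.931) and Vars2 (-2.64, 0.95) had the lowest p-values downward. The 5 genes with the promoter element all lay above 0 here, at 0.35 for Aars, 1.31 for Gars, 1.09 for Iars, 0.81 for Tars and 0.77 for Yars, and none was called. They stand beside the 16 of 20 cytosolic genes above 0, and the part of the element was not tested.

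Ears2 and Aars2 were too low in FrD for edgeR's filter. Ears2 had 0.904, 0.621, 3.57, 3.90 and 0.0424 CPM in mutant FrD, 272 counts in all against 2 in WT, a ratio of 103 in pooled CPM (95% counting interval 28.1 to 852), and the lowest mutant library fell within the WT range. DESeq2, which kept it, gave a log2 difference of 5.99 (adjusted p = 0.0193). Aars2 had 3.19, 0, 0.816, 0.138 and 1.78 CPM in mutant FrD, 145 counts against 0, and was at least 36.5-fold higher over the group. Granulocyte and monocyte markers summed to 2520 to 10155 CPM in mutant FrD (median 2872) and to 35.8 to 77487 in WT FrD (median 285). Erythroid markers summed to 765 to 7297 CPM in mutant FrD (median 6373) and to 147 to 32753 in WT FrD (median 223). The part of these cells in the synthetase values was not tested.

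In FrB, edgeR called 3 synthetase genes between genotypes, beside 7.37% of all genes, 5.64% higher and 1.72% lower. Eprs was higher in the mutants, at 474, 192, 171, 225 and 211 CPM against 98.6, 118, 158, 106 and 152 CPM in WT, without overlap (log2 difference 1.31, SE 0.37, edgeR adjusted p = 0.043). Vars2 (chr17:35655634-35667592, minus strand), the mitochondrial valine enzyme, had 46.9, 11.98, 66.7, 0.318 and 33.8 CPM in the mutants and 0.0799, 0, 2.19, 0.361 and 3.44 CPM in WT (5.24, SE 1.52, edgeR adjusted p = 0.0487). Mutant mouse 9 lay inside the WT range for Vars2. Dars (chr1:128363707-128417368, minus strand), the aspartate enzyme, was lower in the mutants, at 26.7, 154, 53.8, 42.8 and 54.2 CPM against 350, 302, 248, 223 and 228 CPM (-1.77, SE 0.45, edgeR adjusted p = 0.0271).

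Of these mutant FrB libraries 4 are low-complexity, and the mutant library that is not, mouse 5, had the Dars value closest to WT. With mouse 5 as the lone mutant, assumed to vary like the WT libraries, none of the 3 was called, at 0.54 for Eprs, 3.26 for Vars2 and -0.87 for Dars, beside 1.2% of all genes. All 3 calls were also lost when any 1 WT FrB library or that of mutant mouse 10 was left out, with log2 differences of -1.68 to -1.84 for Dars, 1.23 to 1.405 for Eprs and 4.92 to 6.07 for Vars2, and 1 call was left without mutant mouse 4 or 9. Aars (1.56, edgeR adjusted p = 0.0693) was next upward and also lay above WT in every mutant library, at 150, 123, 347, 155 and 117 against 73.1, 83.5, 102, 85.6 and 84.0 CPM. Rars2 (-2.02, 0.118) and Nars (-0.88, 0.212) followed Dars downward. Separation above WT was seen for Aars and Eprs, beside 4.41% of all genes, and separation below WT for Dars, Farsb, Hars, Nars2 and Rars2, beside 8.27%. The medians were 0.34 for cytosolic genes and -0.39 for mitochondrial genes, beside 0.11 for all genes. Of the other lists, Atf4 (1.46) and the arginine and lysine transporter gene Slc7a1 (2.20) among ATF4 targets, Eef1b2 (1.46) among tRNA handling genes and Ncl (1.65) in the MYC list rose, beside the 5.64% of all genes given earlier. Without the low-complexity libraries none of the 4 was called, at 0.093 for Atf4, 1.07 for Slc7a1, 0.54 for Eef1b2 and 0.67 for Ncl, and the ATF4 list's Pycr1 (-4.73) and Slc3a2 (-1.75) fell. The B-lineage markers themselves differed in FrB: their sum was 8020 to 11133 CPM in the mutants and 14655 to 21122 CPM in WT. Of them Cd79a (-2.22), Cd79b (-1.47), Cd74 (-4.23) and Ms4a1 (-3.24) fell and Ebf1 (1.64), Vpreb1 (1.18), Rag1 (2.21) and Mki67 (1.36) rose. With mouse 5 as the lone mutant, Cd79a was -0.97, Cd79b -1.15, Cd74 -3.53 and Ms4a1 -3.85. Ebf1 was then 0.43, Vpreb1 0.089, Rag1 0.30 and Mki67 0.78. Granulocyte and monocyte markers summed to 2462 to 59836 CPM in mutant FrB and 217 to 10962 in WT, plasma cell markers to 946 to 12804 against 17573 to 52746 and erythroid markers to 87.1 to 12304 against 2273 to 23857. The part of these cells in the FrB values was not tested.

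In FrC no gene of the whole table was called between genotypes (0%), and 4 of the 35 members had an unadjusted edgeR p under 0.05; DESeq2 called none of them. The largest upward differences rested on FrC of mutant mouse 9, a low-complexity library. Iars had 194, 191, 159, 5969 and 180 CPM in mutant mice 4, 5, 8, 9 and 10 against 89.0 to 166 CPM in WT, Vars2 had 1720 CPM in mouse 9 against 1.60 to 18.02 in the other mutants, and Yars 883 against 79.6 to 186 CPM. Their log2 differences of 6.19, 9.20 and 3.86 (edgeR adjusted p = 0.271 for each) became 0.48, 0.51 and 0.73 without the low-complexity libraries. These differences use TMM-scaled library sizes and are not those of the printed CPM. With TMM over all 40 libraries the cytosolic sum of FrC of mutant mouse 9 was 38387, against 7302 in CPM. Downward, the lowest p-values were those of Dars (-0.98), Nars2 (-1.62) and Cars2 (-1.34). In none of the 35 genes were the genotypes separated in FrC, beside 0.0388% of all genes with the mutants above and 2.32% with them below.

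In FrE no gene was called either (0%), and 3 of 34 tested members had an unadjusted edgeR p under 0.05. This fit holds the library of mutant mouse 9 with 42111 counts. Without the low-complexity libraries 0.284% of all genes were called, among them Ddit3 of the ATF4 list (1.93, edgeR adjusted p = 0.0348). Cars, the cysteine enzyme (chr7:143557230-143600090, minus strand), was the clearest, at 42.7, 44.1, 128, 94.99 and 158 CPM in the mutants and 19.96, 12.97, 3.55, 38.5 and 6.45 CPM in WT. All mutant libraries lay above all WT libraries, beside 1.4% of all genes, with a log2 difference of 2.38 (SE 0.68, edgeR adjusted p = 0.477), and DESeq2 called it. The 94.99 CPM is that of mutant mouse 9, where 1 count is 23.7 CPM, so its level is poorly resolved. WT mouse 7 (6.45 CPM) is low-complexity too. The lowest other mutant value (42.7 CPM) and the highest WT value (38.5 CPM) come from libraries that are not low-complexity. Iars (1.06) and Nars (0.84) followed upward, and Cars2 (-2.34), Tars (-0.90) and Rars (-0.84) were the lowest in p downward. The cytosolic median was -0.32 and the mitochondrial -0.03, beside -0.10 for all genes. Plasma cell markers summed to 1999 to 2826 CPM in mutant FrE (median 2470) and to 1186 to 23520 in WT FrE (median 7893). Among B-lineage markers, mutant and WT medians were 290 and 27.7 CPM for Il7r and 202 and 6.05 for Igll1. They were 4504 and 14311 CPM for Cd74 and 2121 and 5696 for Ms4a1. The part of these differences in the synthetase values was not tested.

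**Figure D3:**
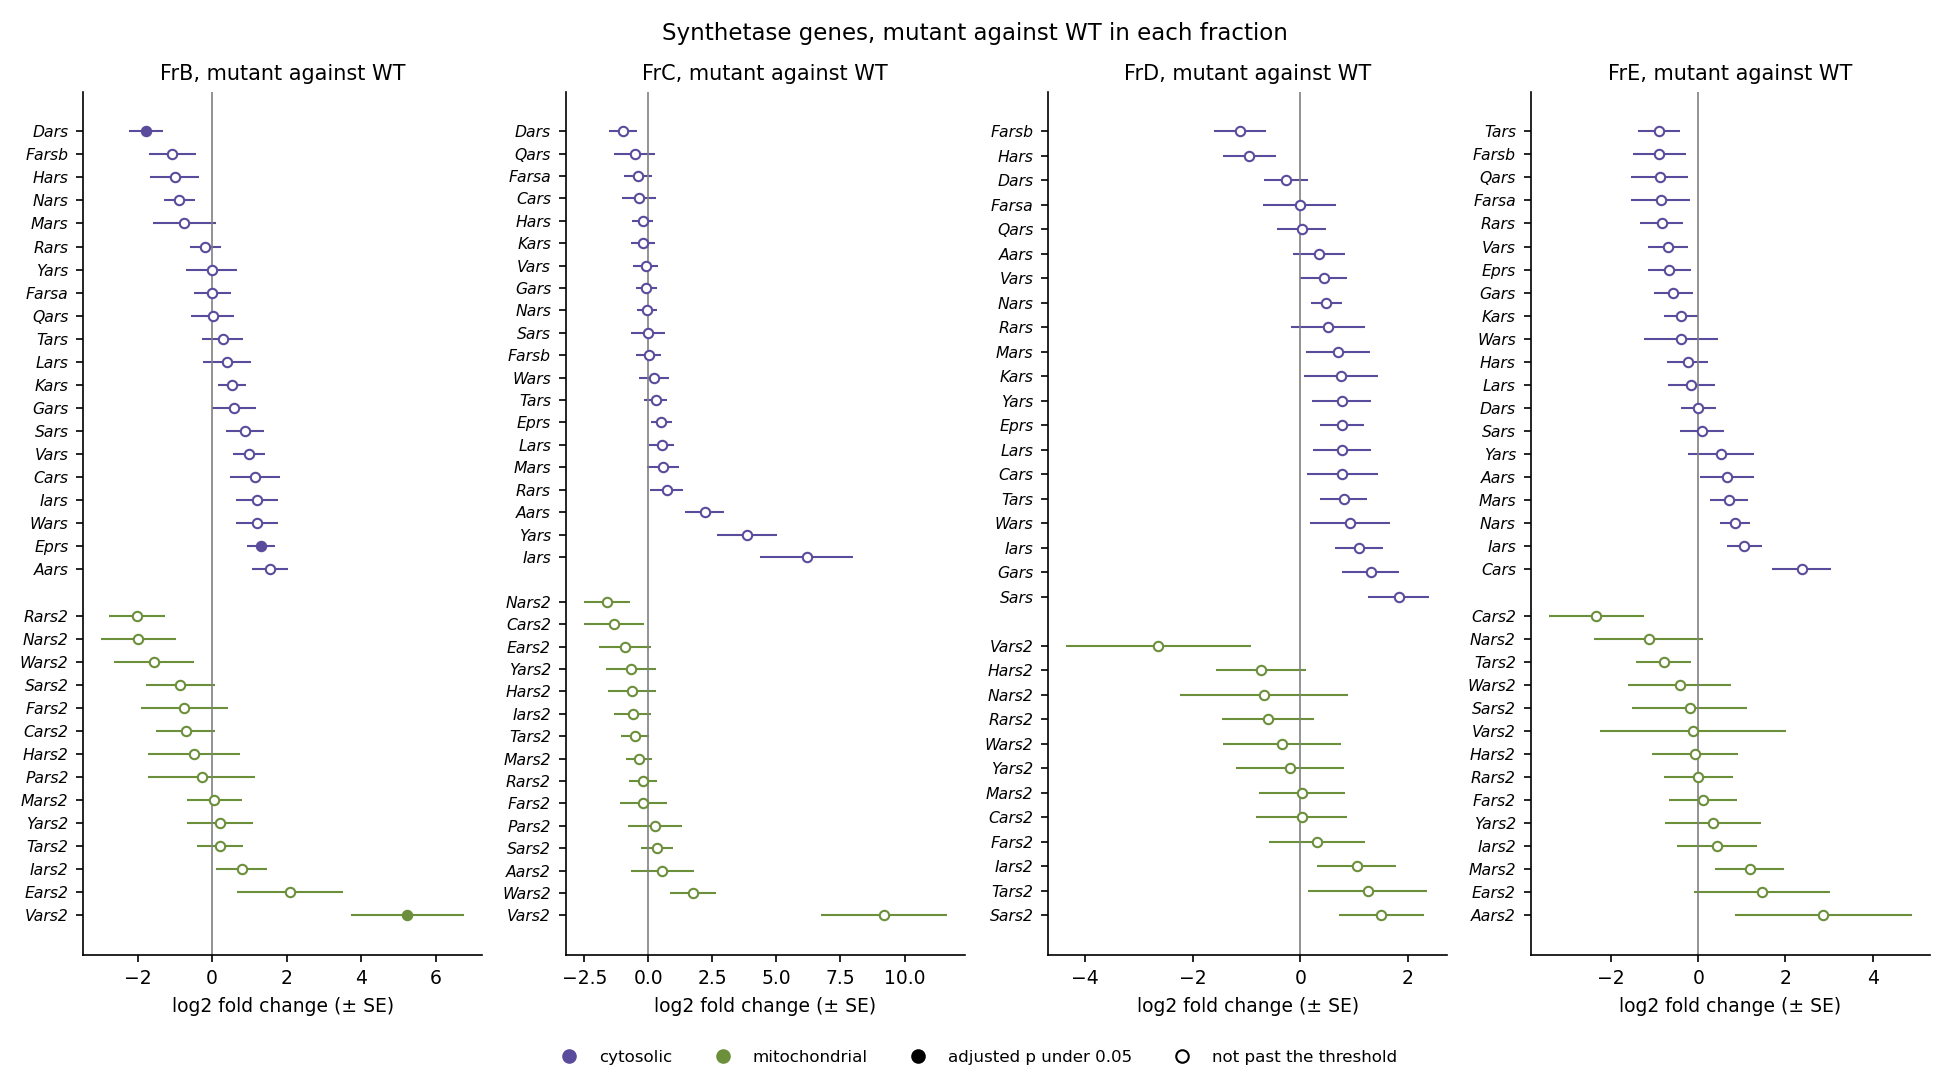
Log2 differences, mutant minus WT, of the synthetase genes in each fraction, with bars of 1 SE, cytosolic genes above mitochondrial genes, and filled points for adjusted p under 0.05. Genes below the filter on low counts are not drawn (Aars2 in FrB, Aars2, Ears2 and Pars2 in FrD, Pars2 in FrE); the calls are Eprs, Dars and Vars2 in FrB, and 16 of 20 cytosolic genes lie above 0 in FrD without a call.

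Summing the counts of each mouse over its 4 fractions gave 1 value per mouse and a single comparison of genotypes. Raw counts were summed, so a deeper library weighs more, and the mix of fractions differs between mice. In mutant mouse 9, FrB gave 9440875 counts, FrC 1723215, FrD 43372070 and FrE 42111. The part of this mix in the differences over fractions was not tested. Iars was the synthetase gene that rose, beside 0.291% of all genes that rose and 0.341% that fell. It stood at 169, 121, 160, 317 and 161 CPM in the mutant mice and at 74.0, 83.9, 86.1, 79.5 and 66.6 CPM in the WT mice, without overlap. The log2 difference was 1.22 (SE 0.22, edgeR adjusted p = 0.021). Without the low-complexity libraries it was 0.79 (edgeR adjusted p = 0.0545), and the call was also lost without WT mouse 1, 2 or 6 (1.21, 1.25 and 1.198) and with ERCC scaling (1.07). Next upward were Cars (0.98, edgeR adjusted p = 0.149) and Sars (0.80, 0.129), and downward Farsb (-0.72, 0.125), Nars2 (-1.38, 0.125) and Hars (-0.58, 0.144). The mutants lay wholly above WT for Aars, Iars and Aars2, beside 2.49% of all genes, and wholly below for Hars and Nars2, beside 1.58%. Of the B-lineage markers Cd74 (-1.98) and Cd79a (-0.81) fell in this comparison. The set medians were 0.18 for cytosolic and -0.05 for mitochondrial genes, beside 0.04 for all genes. The genes with the promoter element stood at 1.22 (Iars), 0.53 (Yars), 0.51 (Aars), 0.11 (Gars) and -0.01 (Tars), and the part of the element was not tested.

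**Figure D4:**
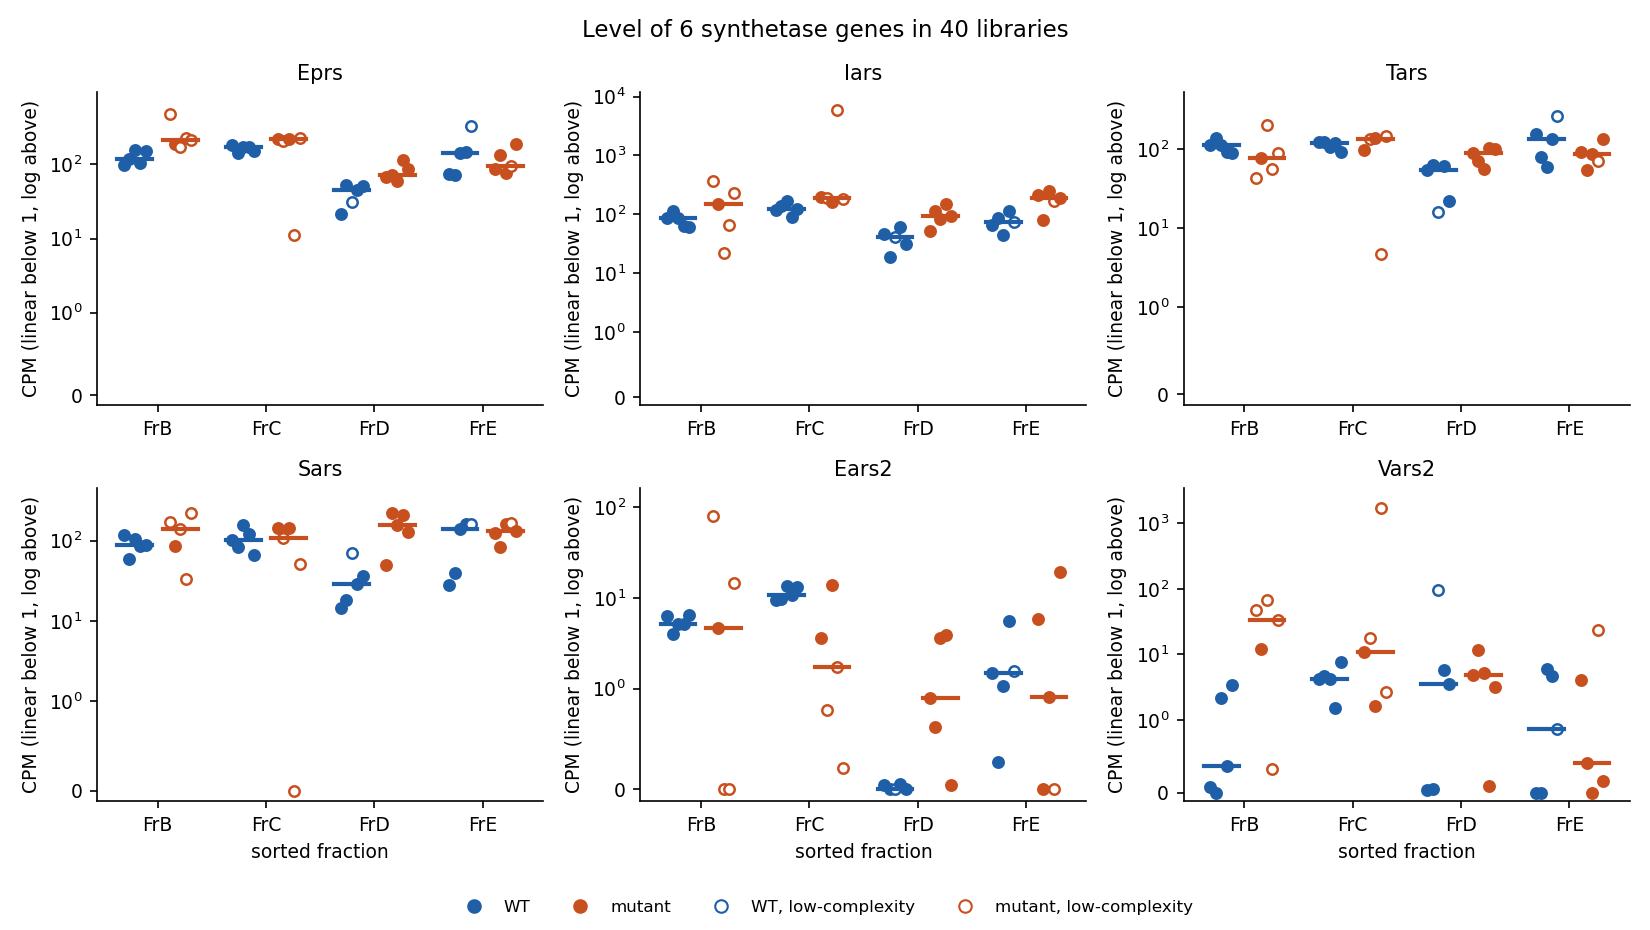
Level in CPM of Eprs, Iars, Tars, Sars, Ears2 and Vars2 in all 40 libraries, by fraction and genotype, on an axis that is linear below 1 CPM and logarithmic above. Open points are low-complexity libraries and bars are medians of 5; WT Eprs, Iars and Ears2 are lowest in FrD, and Iars and Vars2 in FrC of mutant mouse 9 reach 5969 and 1720 CPM.

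The ATF4 list, which holds no synthetase gene, was read in the same comparison. Of its 31 tested genes 4 rose and none fell, with a median log2 difference of 0.76. Ddit3, which encodes the stress factor CHOP, had 87.0 to 151 CPM in mutant and 34.5 to 43.4 CPM in WT mice (1.65, edgeR adjusted p = 0.000856), and Atf4 itself 447 to 547 against 262 to 305 CPM (0.78, 0.00754). Slc7a1 (edgeR adjusted p = 0.0231) and the mitochondrial folate enzyme gene Mthfd2 (0.81, edgeR adjusted p = 0.0347) also rose. Ddit3 and Atf4 remained called without the low-complexity libraries, where 0.119% of all genes rose. None of the tested genes of the tRNA handling, scaffold, eIF2 and MYC lists was called over fractions. In FrD, 22 of 24 tested ATF4 targets had log2 differences above 0 (median 1.12, beside -0.07 for all genes), none of them called. Ddit3 and Mars share 68 exonic bases on opposite strands, so their reads cannot be told apart there if strand was not used in counting.

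Whether a step between fractions differed by genotype was tested on all 40 libraries. At FrC to FrD, Iars (mutant step minus WT step -5.43, edgeR adjusted p = 0.0277) and Vars2 (-12.15, 0.0319) were called, beside 2.71% of all genes that were lower. Both rest on FrC of mutant mouse 9. Without the low-complexity libraries the differences were 0.74 and 0.51, and no gene of the table was called (0%). At FrB to FrC edgeR called no member, beside 0.524% of all genes. The lowest p-values were those of Iars (5.26, edgeR adjusted p = 0.0616), Yars (4.11) and Wars2 (3.47) upward and of Aars2 (-5.16), Vars (-1.10) and Cars (-1.56) downward. At FrD to FrE edgeR called no member, beside 0.153% of all genes, and DESeq2 called Aars2. Gars (-1.89, edgeR adjusted p = 0.272), Tars (-1.73) and Eprs (-1.45) had the lowest p-values downward, and Cars (1.62), Mars2 (1.16) and Hars (0.72) upward. Tars2 was called at that step without the low-complexity libraries (-3.74, edgeR adjusted p = 0.0275), beside 0.736% of all genes. At FrC to FrD DESeq2 called 2 others, Aars2 and Ears2, with the mutant minus WT step above 0 for both.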

How the data were processed

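The authors deposited unnormalized read counts, 1 row per gene. Per the submitters' processing notes the tools were HISAT2 2.1.0, featureCounts 1.4.6, Subread and DESeq2, on build mm10. Which annotation release and strand setting were used was not given in the sources used here, and reads of overlapping exons on opposite strands cannot be told apart. The longest overlaps are those of Iars2 and Rab3gap2 (2034 bases), Fars2 and Nrn1 (501), Cars2 and Naxd (422) and Farsb and Sgpp2 (248). Others include Hars and Hars2 (195 bases) and Ears2 and Ubfd1 (89 bases). Identifiers were matched to GENCODE M21 (21728 of 21958 genes, the rest holding 0.0325% of counts), whose coordinates are printed, counted from 1. The 92 ERCC rows stayed out of library sizes and tests.

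CPM is a count per 1000000 endogenous counts of its library. Fits used edgeR 4.0.16 in R 4.3.3 (quasi-likelihood, robust, TMM, filterByExpr with a minimum count of 10 and total of 15), two-sided, with Benjamini-Hochberg adjustment over all genes tested and a threshold of 0.05. The script was tested on simulated data. Genotypes were compared on the 10 libraries of a fraction, or on counts summed per mouse, WT steps on 20 libraries, and differences in step on 40. Fold changes are log2, with SE where given. A group at 0 counts is bounded at 3 counts over the group, and counting intervals are exact at 95%.

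Libraries with the same mouse number are fractions of 1 animal, and that is the source of the pairing. Their deviations from group means had median correlations of -0.0115 to 0.0529 per step. Nothing says how many donors gave marrow to the mice of a genotype, so p-values measure the spread between chimeras.

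Members called are named, or otherwise the 3 of lowest p in a direction, with the 4 highest and 4 lowest in level. Members named only for groups that did not overlap, or for a call in an alternative, were chosen after their values were seen. The members, lists (charged tRNA handling, scaffold, eIF2, ATF4 and MYC genes, and cell type markers) and alternatives were chosen with earlier results of these data known. Alternatives were DESeq2 1.42.0, ERCC scaling, no filter, a joint fit, an index covariate, a mouse block, leaving out each mouse and leaving out low-complexity libraries. Protein sequences were not used here.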

Additional observations from a re-analysis of the deposited data

Results flagged for a closer look

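For 9 measures the 5 libraries of each group were searched for a highest or lowest value whose gap to the next exceeded 0.71 of the group's range, 72 searches in all, of which chance gives about 1 in 20. They found 20 such values, 13 of them in low-complexity libraries. In mutant FrB these were Aars2 in mouse 9 (39.7 CPM), Dars in mouse 5 (154 CPM), Ears2 (80.8 CPM) and Eprs (474 CPM) in mouse 4, and Tars in mouse 8 (199 CPM). In FrC of mutant mouse 9 they were the cytosolic sum (7302 CPM), the mitochondrial sum (1749 CPM), Iars (5969 CPM) and Vars2 (1720 CPM), all high, and Eprs, low at 11.03 CPM. In the other mutant FrC libraries Aars2 stood apart in mouse 5 (20.8 CPM) and Ears2 in mouse 8 (13.9 CPM). In mutant FrE they were the cytosolic sum of mouse 5, low at 1549 CPM, Aars2 in mouse 10 (40.7 CPM) and Vars2 in mouse 9 (23.7 CPM, which is 1 count). In WT mice they were Aars2 in FrB of mouse 1 (0.879 CPM), Dars in FrC of mouse 7, low at 203 CPM, Vars2 in FrD of mouse 3 (97.3 CPM), Ears2 in FrE of mouse 6 (5.55 CPM) and Eprs in FrE of mouse 7 (334 CPM). The step from FrC to FrD differed between genotypes by edgeR for Iars (-5.43) and Vars2 (-12.15), and without low-complexity libraries it did not pass the test.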

How the results depend on the processing

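The counts of synthetase genes called moved with the setting, as did the share of all genes called, which follows each count in percent, and the cause was not tested except where a setting leaves out libraries. From WT FrC to FrD, where 4 members and 5.23% of all genes were, DESeq2 called 7 (12.5%), ERCC scaling 31 (58.0%), no filter 2 (2.81%) and the fit without low-complexity libraries 14 (16.1%), and leaving out 1 mouse gave 1 to 4 (1.63% to 5.82%). From FrD to FrE, where 3 (5.32%) were called, these were 6 with DESeq2 (14.3%), 1 with ERCC scaling (2.09%), 5 without low-complexity libraries (8.9%) and 2 to 5 on leaving out 1 mouse (2.2% to 4.32%), and from FrB to FrC the count was 0 in every alternative run. For genotype in FrB, with 3 called (7.37%), DESeq2 gave 5 (19.1%), ERCC scaling 1 (1.4%), the joint fit 1 (4.48%), the index covariate 1 (3.39%), the fit without low-complexity libraries 0 (1.2%) and leaving out 1 mouse 0 to 5 (2.45% to 18%). In FrC, with 0 called, ERCC scaling gave 2 (2.18%) and the joint fit 4 (5.06%). In FrD, with 0 called, DESeq2 gave 1 (2.51%), the fit without low-complexity libraries 1 (0.376%) and leaving out 1 mouse 0 to 1 (0% to 0.376%), and in FrE DESeq2 gave 1 (1.15%) against 0. Over fractions, with 1 called (0.631%), DESeq2 gave 6 (6.56%), ERCC scaling 0 (0.673%), the fit without low-complexity libraries 0 (0.331%) and leaving out 1 mouse 0 to 2 (0.212% to 0.855%). For the difference in step from FrC to FrD, with 2 called (2.98%), ERCC scaling (0.00807%), no filter (1.15%), the mouse block (0.00746%) and the fit without low-complexity libraries (0%) each gave 0, and DESeq2 called 2 others, Aars2 and Ears2 (4.29%). For that from FrD to FrE, with 0 called, DESeq2 gave 1 (3.34%) and the fit without low-complexity libraries 1 (1.39%). As a pairing check, the mouse block left 3 calls at each of the last 2 WT steps and changed no call beyond those printed in the report.

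With TMM-scaled library sizes the mean cytosolic sum was 2749 CPM in WT FrC (3247 as reported), 10311 in mutant FrC (4055) and 1683 in WT FrD (1546), and the mean mitochondrial sum in mutant FrC was 2170 (694).

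Some named values changed sign, none of them called in the alternative. Without low-complexity libraries these were Vars2 in FrD (1.02, also without WT replicate 3, with -3.22 to 1.02 over all left-out libraries), at FrC to FrD (-0.77) and at FrD to FrE (0.089), and, for the differences in step, Cars (0.15) and Iars (-0.34) at FrB to FrC and Iars (0.74) and Vars2 (0.51) at FrC to FrD. Vars2 at FrC to FrD was also -2.60 with the mouse block and -0.78 without mouse 3 (-0.78 to 3.42 over all left-out mice). ERCC scaling turned Cars2 (0.78), Nars (0.50) and Wars2 (0.82) at FrB to FrC and Hars2 (-1.85) and Wars2 (-1.44) at FrC to FrD. At FrB to FrC, Cars2 was 0.026 with the block and 0.018 without mouse 2 or mouse 6 (from -0.35 over all left-out mice), and Wars2 was 0.17 without mouse 7 (from -0.65). Depth limits FrE of mutant mouse 9, where 1 count is 23.7 CPM.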
